A study of Rattus norvegicus with 6 samples.

Results

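Keratins and markers of bile duct epithelium were examined in liver RNA from 6 male Sprague-Dawley (Crl:CD(SD)) rats, each hybridised to its own single-colour array. The 9 genes are the hepatocyte keratins Krt8 and Krt18, the cholangiocyte keratins Krt7 and Krt19, and the biliary markers Epcam, Sox9, Spp1, Cldn4 and Cftr. A probe was assigned to a gene when its accession, without version, matched a RefSeq transcript of that gene. This gave 13 probes for 8 of the 9 genes, out of 10257 genes tested on the arrays. No probe was matched to Sox9, a transcription factor of bile duct cells, so it was not analysed here. The 8 genes with a probe were all tested, through 10 probes.

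Liver of 3 rats that received o-anthranilic acid at 1000 mg/kg/day was compared with liver of 3 rats that received corn oil. The labels do not say in what the acid was given. Anthranilic acid is 2-aminobenzoic acid, an aromatic amine formed in the breakdown of tryptophan. The labels give 9 weeks of dosing in one place and 28 days in another, so the length of exposure behind every value is uncertain. The rats were 5 weeks old at purchase, all were fed a basal diet, and each group is 3 separate animals per the labels.

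Keratins are the intermediate filament proteins of epithelial cells and assemble as pairs of a type I and a type II chain. Hepatocytes contain the pair of keratin 8 (type II) and keratin 18 (type I). Cholangiocytes, the cells that line the bile ducts, contain that pair and in addition keratin 7 (type II) and keratin 19 (type I). They also carry the surface glycoprotein Epcam and the chloride channel Cftr, which drives bicarbonate-rich fluid secretion into bile. In whole liver RNA, a change in the number of cholangiocytes and a change in RNA per cell cannot be told apart.

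None of the 8 measured genes passed the test at adjusted p under 0.05 (limma, Benjamini-Hochberg over 33428 probes), against 0.0329% of all tested probes (0.00897% higher and 0.0239% lower in treated rats) and 0% of genes at the probe that stands for each. Signals of Krt8 and Krt18, the keratins of hepatocytes, differed between the groups by 0.26 or less on the log2 scale. The cholangiocyte keratin Krt19 was 1.51-fold higher in the anthranilic acid group and Epcam 1.45-fold lower, neither past the adjusted threshold. Of the 8 genes, 4 had a difference above 0 and 4 below 0, where 52% of all genes were above 0. The median difference of the 8 genes was 0.15 on the log2 scale, against 0.0085 over all genes, and it ran from 0.0028 without corn oil replicate 1 to 0.22 without corn oil replicate 2. It was -0.0024 over the 7 genes well above background on all 6 arrays, which leaves out Cftr, so its sign rests on that gene. At unadjusted p under 0.05 there were 2 of the 8 genes, Krt19 and Epcam, where the share over all genes was 11.6% (5.47% higher and 6.15% lower in treated rats).

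The RefSeq promoter table of the GRCr8 assembly holds windows for 5 of the 9 genes. The 250 bases before the annotated start are shown for Krt18, the hepatocyte keratin with 3 probes and little difference between the groups, and for Epcam, the only one of the 8 genes whose groups did not overlap at the probe that stands for the gene. Capitals mark matches, on either strand, to the GC box GGGCGG and to the AP-1 type motif TGANTCA. The Krt18 window is chr7:135035918-135036167 on the plus strand and the Epcam window chr6:12649679-12649928 on the minus strand, each printed 5′ to 3′ in the direction of transcription.
Krt18: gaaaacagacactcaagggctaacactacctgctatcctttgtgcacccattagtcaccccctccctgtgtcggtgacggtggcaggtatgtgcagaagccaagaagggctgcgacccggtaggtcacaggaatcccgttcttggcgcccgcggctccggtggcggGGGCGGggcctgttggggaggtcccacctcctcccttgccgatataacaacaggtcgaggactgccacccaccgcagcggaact
Epcam: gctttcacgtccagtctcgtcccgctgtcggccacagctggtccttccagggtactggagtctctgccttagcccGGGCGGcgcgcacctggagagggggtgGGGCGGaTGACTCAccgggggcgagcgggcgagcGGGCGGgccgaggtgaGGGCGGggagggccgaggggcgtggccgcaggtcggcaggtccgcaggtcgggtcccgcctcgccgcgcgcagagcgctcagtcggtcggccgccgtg
The Krt18 window holds 1 GGGCGG match and the Epcam window 4, with GC contents of 62.0% and 75.6%. The Epcam window also holds TGANTCA, whose 2 matches are the same bases read on both strands. Among 33469 such windows of the table, 30.5% hold GGGCGG and 6.34% hold TGANTCA. These are letter matches only, and nothing in the array data bears on binding there.

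Levels are given as log2 signal minus the 75th percentile of the signal on the same array, so that 0 is the brightness of the 75th percentile and 1 unit is a doubling. A level depends on the probe as well as on the transcript, so levels of different genes are not ranked against each other. Each group had 3 arrays. A difference is the treated mean less the corn oil mean, in log2 units. Standard errors (SE) and 95% intervals come from limma.

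Krt18, the type I partner of keratin 8, was measured by 3 bright probes. At the probe with the highest mean signal, A_44_P400494, the corn oil rats were at 7.69, 8.14 and 8.07 and the anthranilic acid rats at 7.83, 7.99 and 8.06. Every treated rat lay within the range of the corn oil rats. The difference was -0.0024 (SE 0.14, interval -0.35 to 0.35, limma adjusted p = 0.996). The other 2 probes gave -0.055 and -0.093 (SE 0.15 and 0.13, limma adjusted p = 0.900 and 0.798). The 3 pairs of Krt18 probes did not pass a test of unequal shifts (limma adjusted p from 0.808 to 0.938 over 9801 probe pairs, of which 0.0306% passed).

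Krt8, the type II partner, was at 2.37, 2.75 and 2.42 in the corn oil rats and at 2.04, 2.21 and 2.52 in the anthranilic acid rats. Treated replicates 1 and 2 lay below all 3 corn oil rats, and treated replicate 3 lay between them. The group means were 2.51 ± 0.21 and 2.26 ± 0.25 (SD, n = 3 each). The difference was -0.26 (SE 0.17, interval -0.66 to 0.14, limma adjusted p = 0.547), and with 1 array left out at a time it ranged from -0.39 to -0.14. Both keratins form one filament, so the shift of Krt8 relative to Krt18 was compared within each array. The log2 ratio of Krt8 to Krt18 signal moved by -0.25 between the groups (two-sided exact permutation p = 0.2, where 0.1 is the smallest that 3 against 3 arrays allow). The ratio of treated replicate 3, at -5.54, lay inside the corn oil range of -5.65 to -5.32.

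**Figure D1:**
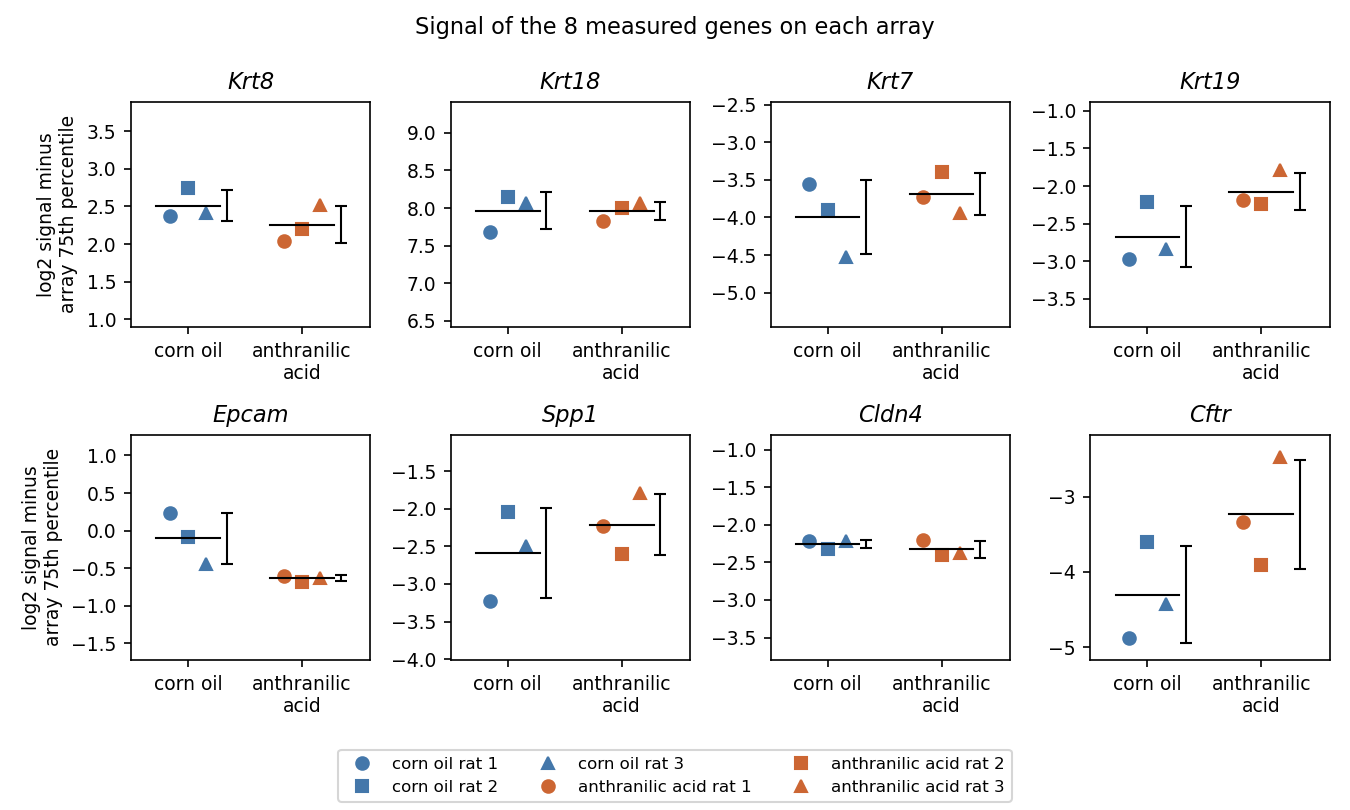
Signal of the 8 measured genes on each of the 6 arrays, as log2 signal minus the 75th percentile of the array, with every panel spanning the same 3 log2 units. Symbols are single rats, horizontal lines are group means and bars are 1 SD (3 rats per group). Epcam is the only panel in which all 3 anthranilic acid rats lie on one side of all 3 corn oil rats.

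Krt19, the type I keratin that distinguishes bile duct cells from hepatocytes, had levels of -2.97, -2.21 and -2.84 in the corn oil rats. The anthranilic acid rats were at -2.19, -2.24 and -1.79. Corn oil replicate 2 was as bright as treated replicates 1 and 2, so the groups overlapped, whereas the other 2 corn oil rats were below every treated rat. The difference was 0.60 (SE 0.23, interval 0.039 to 1.15), or 1.51-fold, with a limma adjusted p of 0.392 over all probes. A difference at least this large in size was found for 5.25% of genes. It was 0.45 without corn oil replicate 1 and 0.83 without corn oil replicate 2, and 0.34 after normexp background correction with an offset of 50.

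Krt7, the type II keratin of bile ducts, was dim, with signals of 21.8 to 48.0 on the scanner's scale, although well above background on all 6 arrays. Its levels were -3.56, -3.91 and -4.53 in corn oil rats and -3.73, -3.39 and -3.94 in treated rats. The groups overlapped, and corn oil replicate 3 was the lowest of the 6. The difference was 0.31 (SE 0.27, interval -0.34 to 0.96, limma adjusted p = 0.654). It was 0.046 without corn oil replicate 3 and 0.53 without corn oil replicate 1.

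Epcam, a cell adhesion glycoprotein of bile duct epithelium and of liver progenitor cells, was at 0.23, -0.079 and -0.45 in the corn oil rats. The 3 treated rats were close together at -0.60, -0.68 and -0.63. All treated rats lay below all corn oil rats, which held for 1 of the 8 genes and for 19.8% of all genes. The corn oil rats spread more widely (SD 0.34) than the treated rats (SD 0.041), and corn oil replicate 3 was only slightly above the treated group. The difference was -0.53 (SE 0.17, interval -0.95 to -0.11), or 1.45-fold lower, with a limma adjusted p of 0.350 over all probes. A difference of this size or larger was found for 6.6% of genes. It stayed below 0 with any 1 array left out, from -0.71 to -0.37, the smallest size being without corn oil replicate 1.

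Spp1 encodes osteopontin, a secreted phosphoprotein of bile duct cells that macrophages and activated stellate cells also make. Corn oil rats were at -3.23, -2.05 and -2.50 and treated rats at -2.24, -2.60 and -1.80. The groups overlapped widely. The difference was 0.38 (SE 0.34, interval -0.44 to 1.21, limma adjusted p = 0.661), and it was 0.065 without corn oil replicate 1 and 0.18 without anthranilic acid replicate 3.

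Cftr had 3 probes, of which A_64_P103542 and A_44_P172901 were not well above background on any array. The third, A_64_P103537, was well above background on 2 of 3 corn oil and 3 of 3 treated arrays, with signals of 17.8 to 88.2. Its levels were -4.88, -3.60 and -4.42 in corn oil rats and -3.33, -3.91 and -2.47 in treated rats, overlapping between corn oil replicate 2 and treated replicate 2. The difference of 1.07 (SE 0.45, interval -0.029 to 2.16) did not pass (limma adjusted p = 0.415). It was 0.68 without anthranilic acid replicate 3 and 0.49 after normexp correction. Because the probe passed the filter on dim probes through the treated group, its difference is not counted as support for a shift of the group of genes.

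Cldn4, a tight junction claudin of bile duct epithelium, was even across the rats at its brighter probe. The corn oil rats were at -2.22, -2.32 and -2.22 and the treated rats at -2.20, -2.41 and -2.38. The difference was -0.076 (SE 0.094, interval -0.30 to 0.15, limma adjusted p = 0.762), the narrowest interval among the 8 genes. The second Cldn4 probe, A_44_P975437, was not well above background on any array.

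**Figure D2:**
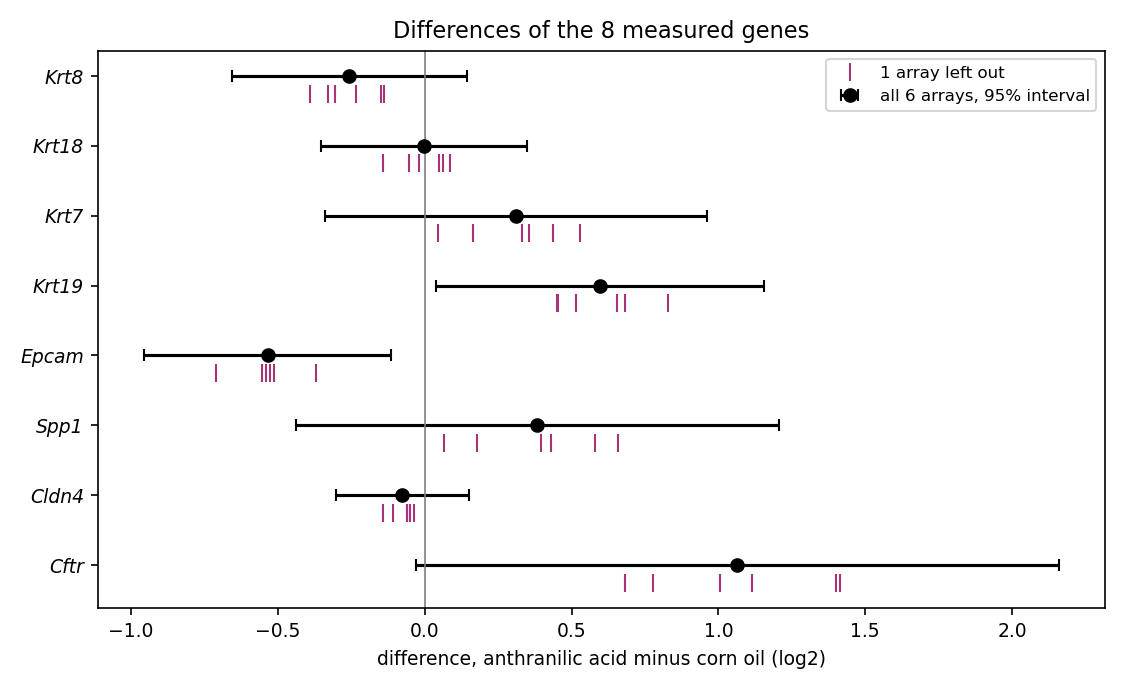
Treated mean less corn oil mean, in log2 units, for the 8 measured genes at the probe that stands for each gene. Points with bars are the limma estimates and their 95% intervals on all 6 arrays, and ticks are the estimates with 1 array left out. The intervals of Krt19 and Epcam leave out 0, in opposite directions, before adjustment over all probes.

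The order of the rats was alike in part of the group, a pattern looked at after the values were seen. Krt19, Spp1 and Cftr were each lowest in corn oil replicate 1 and highest in anthranilic acid replicate 3. Of these 3, Cftr passed the filter on dim probes through the treated group and is set aside, which leaves 2 of 7 genes. The order was found in 5.62% of all genes, and since it was picked from these values nothing is read from the difference. With each array scaled on its median, Krt18 joined them and the share of all genes was 9.96%. The order was also seen for Prom1, a surface protein of progenitor and bile duct cells, among 11 other biliary genes. Krt20, a type I keratin known from the gut, had it as well. Ggt1, the gamma-glutamyltransferase among those 11, had it too, but passed that filter through the treated group and is set aside like Cftr. Krt7, Epcam and Cldn4 did not follow it. Anthranilic acid replicate 3 was the only array on slide 2, and it had the lowest share of probes well above background (53.3%, against 55.2% to 58.0% on the other arrays). The part of the slide in these values was not tested. Without that array, which leaves only slide 1, the differences were 0.45 for Krt19, 0.18 for Spp1 and 0.68 for Cftr.

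Among other genes of bile duct epithelium, 15 of 18 listed had a probe and 11 were measured. At their brightest probes none passed over all probes by limma (smallest adjusted p = 0.293). There, 2 were lower and 1, Ggt1, was higher at unadjusted p under 0.05, where 6.15% and 5.47% of all genes were. Their mean level, Ggt1 included, was 0.52 to 0.62 in corn oil rats and 0.64 to 0.78 in treated rats. Their median difference was 0.18, with 8 of 11 above 0 where 52% of all genes were, and it was between 0.076 and 0.16 with 1 array left out. Ano1, a calcium-activated chloride channel, was at -0.59 (SE 0.16), with all treated rats below all corn oil rats. Slc4a2, the chloride and bicarbonate exchanger through which cholangiocytes put out bicarbonate, was at -0.27 (SE 0.096) at its brightest probe, but at 0.034 and -0.011 at its other 2. Ggt1 was at 0.90 (SE 0.36), and at 0.44 after normexp correction and 0.54 to 1.21 with 1 array left out. It was above background on 2 of 3 corn oil arrays and passed the filter through the treated group, so like Cftr it is not counted as support. Without it the median of the list was 0.15. The mean levels and the 8 of 11 above 0 take Ggt1 in, so the gap between those levels is not counted as support. The surface glycoprotein Cd24 was at 0.26 (SE 0.12), and at 0.52 (SE 0.11, limma adjusted p = 0.210) at a dimmer probe. At both Cd24 probes all treated rats were above all corn oil rats. Mmp7, Cldn7 and the secretin receptor gene Sctr were not well above background on any array, a choice of names made after seeing the values.

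Of 10 other keratins listed, 8 had a probe and 3 were measured. Krt20 was at 0.79 (SE 0.48, limma adjusted p = 0.527), with a corn oil range of -3.12 to -1.17 that takes in treated values from -1.67 to -1.57. With 1 array left out its difference ran from 0.35 to 1.33. Krt1 was at -0.12 and Krt80 at 0.059. The epidermal and basal keratins Krt5, Krt15 and Krt17 were not well above background on any array, named here after their values were seen.

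Proteins that tie keratin filaments to desmosomes were close to the general median. Of 9 listed, 5 were measured, with a median of 0.0082 (mean -0.039) and a range from -0.26 to 0.13, and none was under an unadjusted p of 0.05 at its brightest probe. Plakophilin 2 (Pkp2) was at -0.26 (SE 0.16), and at -0.43 (SE 0.15, limma adjusted p = 0.362, groups apart) at a dimmer probe that was under that value, and plakoglobin (Jup) at 0.13 (SE 0.11). Tchp, a keratin-binding protein, was at -0.15 and the desmocollin Dsc2 at 0.079.

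Chaperones and other proteins found with keratins 8 and 18 in hepatocyte inclusion bodies were all 5 measured, with a median of -0.091. Of the 5, 4 were below 0, where 48% of all genes were. The small heat shock protein gene Hspb1 was at -1.99 (SE 0.48, limma adjusted p = 0.259) and its relative Cryab at -0.39 (SE 0.14, adjusted p = 0.366). In both, all treated rats were below all corn oil rats. Groups that did not overlap, in either direction, were found for 2 of these 5 genes and for 19.8% of all genes. The autophagy adaptor Sqstm1 was at -0.091 (SE 0.12) at its brightest probe and between -0.45 and -0.085 at its other 4 tested probes. The transglutaminase Tgm2 was at 0.036 (SE 0.20).

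Genes of the Notch and Hippo pathways, which act in the choice between hepatocyte and bile duct fate, had a median of -0.15 over 8 measured of 9 listed. Of the 8, 6 were below 0, where 48% of all genes were. None passed over all probes by limma, and 2 were lower at unadjusted p under 0.05, where 6.15% of all genes were. Ccn2, a secreted matricellular protein and a target of the Hippo effectors, was at -2.11, -2.02 and -2.06 in corn oil rats and at -2.78, -3.30 and -2.88 in treated rats. Its difference was -0.93 (SE 0.15, limma adjusted p = 0.150), and -0.55 after normexp correction. Wwtr1, the Hippo effector TAZ, was at -0.37 (SE 0.13) at one probe and at -0.0063 (SE 0.23) at the other. Notch1 was at -0.25 (SE 0.10, limma adjusted p = 0.413), and at -0.89 (SE 0.14, limma adjusted p = 0.144) at a dimmer probe. Ccn1, also a Hippo target, was at -0.37 (SE 0.21), and at -0.50 and -0.89 at dimmer probes.

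Receptors for osteopontin had a median of -0.052 over 4 measured of 5 listed. Cd44 was at 0.32 (SE 0.14) and the integrin chain Itgb5 at -0.25 (SE 0.13), with Itgb1 at -0.11 and Itgb3 at 0.0088. None was under an unadjusted p of 0.05 at its brightest probe. A dimmer Itgb1 probe was, at -0.25 (SE 0.083, limma adjusted p = 0.356), with all treated rats below all corn oil rats. Among 6 regulators of Cftr, all measured with a median of 0.11 (mean -0.060), the kinase Wnk4 was at -0.68 (SE 0.12, limma adjusted p = 0.182) with all treated rats below all corn oil rats, and at -0.19 after normexp correction. The syntaxin Stx1a was at 0.21, the adenylate cyclase Adcy6 at -0.26 and the anion exchanger Slc26a6 at 0.15.

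**Figure D3:**
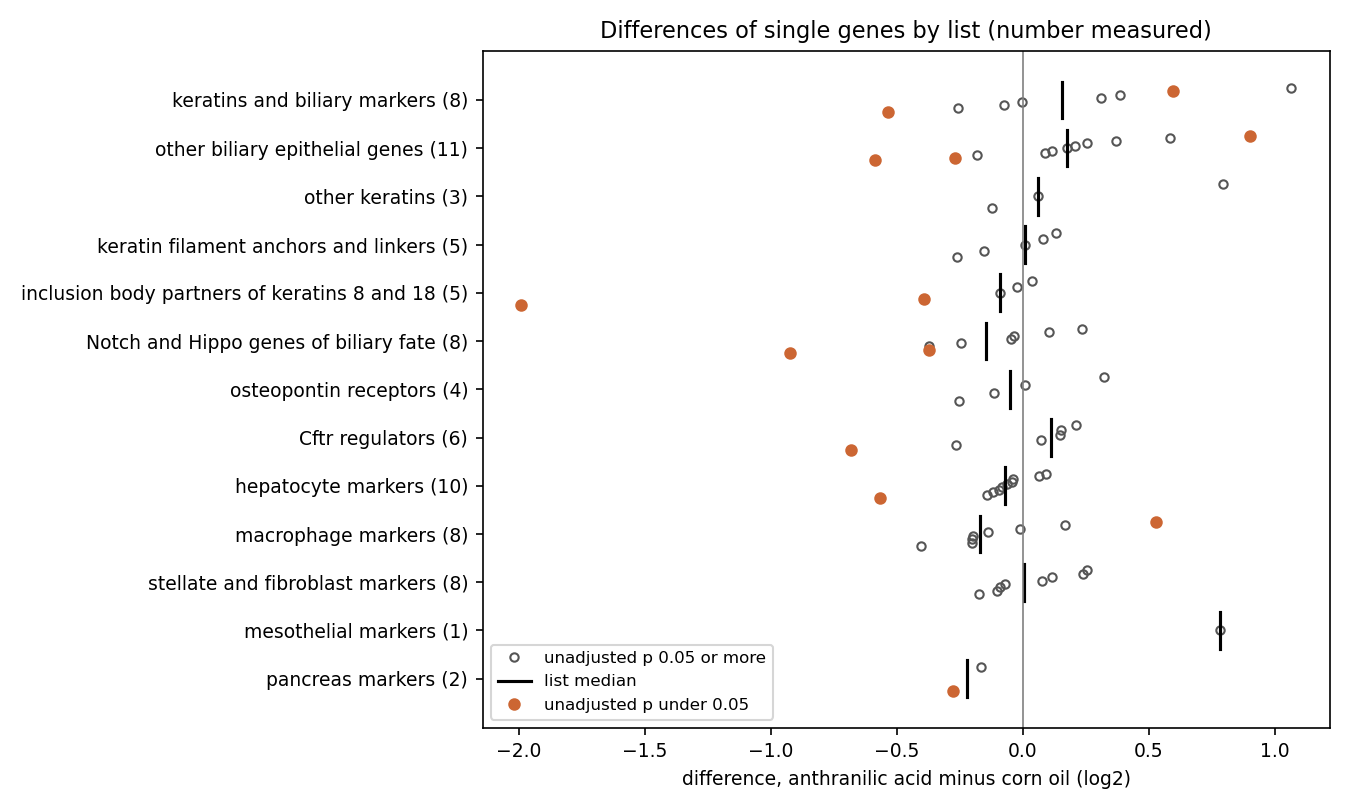
Treated mean less corn oil mean of single genes, in log2 units, for the 8 keratins and biliary markers and for each other list, with the number measured in brackets. Filled points had an unadjusted limma p under 0.05, open points did not, and vertical bars are list medians. No point passed the adjusted threshold of 0.05.

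Markers of other cell types were set beside these values. Hepatocyte markers were well above background on all arrays for 10 of 10 genes. Their mean log2 level was 7.504 to 7.56 in corn oil rats and 7.42 to 7.45 in treated rats, with a median difference of -0.072. Apoa1 is part of that mean, at 8.62, 8.41 and 8.40 in corn oil rats and 8.09, 7.62 and 8.02 in treated rats. The gap between the mean levels is therefore not read as a shift of the list. Apoa1 was at -0.57 (SE 0.15) and the other 9 lay between -0.14 and 0.093 at their brightest probes. Hnf4a, at -0.14 there, was at 0.18 and 0.16 at dimmer probes, and Apob was at -0.35 at its dimmest. Macrophage markers, 8 of 8 measured, had mean levels of 2.32 to 2.63 and 2.12 to 2.56, and a median difference of -0.17. Of these 8, 6 were below 0, where 48% of all genes were. Lyz2 was at 0.53 (SE 0.099, limma adjusted p = 0.188), and at 0.67 (SE 0.13) at a dimmer probe. At both Lyz2 probes all treated rats were above all corn oil rats. Cd163 was at -0.40 (SE 0.19), Adgre1 at -0.20 (SE 0.16) and Cd68 at -0.14 (SE 0.11). A dimmer Cd68 probe was at -0.17, with all treated rats below all corn oil rats. Stellate and fibroblast markers, 8 of 8 measured, had mean levels of 0.39 to 0.44 and 0.41 to 0.52, and a median difference of 0.0028. Of these 8, 4 were below 0, where 48% of all genes were. Vim was at 0.25 (SE 0.13), Col1a1 at 0.24 (SE 0.16), Acta2 at -0.17 (SE 0.13) and Rgs5 at 0.11 (SE 0.13). Only 1 of 4 mesothelial markers was measured, Msln, at 0.78 (SE 0.35), and from 0.41 to 1.14 with 1 array left out. It was at -1.94, -1.27 and -2.73 in corn oil rats and at -1.24, -1.33 and -1.03 in treated rats, so corn oil replicate 2 lay among the treated rats, and Wt1 was not well above background on any array. Of 6 pancreas markers 2 were measured, Ctrb1 at -0.28 (SE 0.11) and Cel at -0.17 (SE 0.19; -0.50 at its dimmer probe), and Prss1, Cela1 and Pnlip were not well above background on any array. The part of these cell types in the values of Krt19, Spp1 and Cftr was not tested.

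For the largest difference in each direction among the genes well above background on all 6 arrays, Krt19 and Epcam, the 3 genes with the nearest profile were found among 9838 other such genes. Nearness was the root mean square distance between log2 profiles centred on their own mean over the 6 arrays. Both groups are in those profiles, so a difference close to that of Krt19 or Epcam follows from the choice. Nearest to Krt19 were Car5a, a mitochondrial carbonic anhydrase (distance 0.0978), S100a6, a calcium-binding protein (0.139), and the odorant receptor gene Or10a2 (0.140). Their differences were 0.56, 0.44 and 0.45. Nearest to Epcam were Elovl2, a fatty acid elongase (0.0525), the carnitine acetyltransferase Crat (0.0724) and the small GTPase gene Rnd1 (0.0758). Their differences were -0.48, -0.44 and -0.52, and none of the 6 genes passed (limma adjusted p from 0.362 to 0.444).

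**Figure D4:**
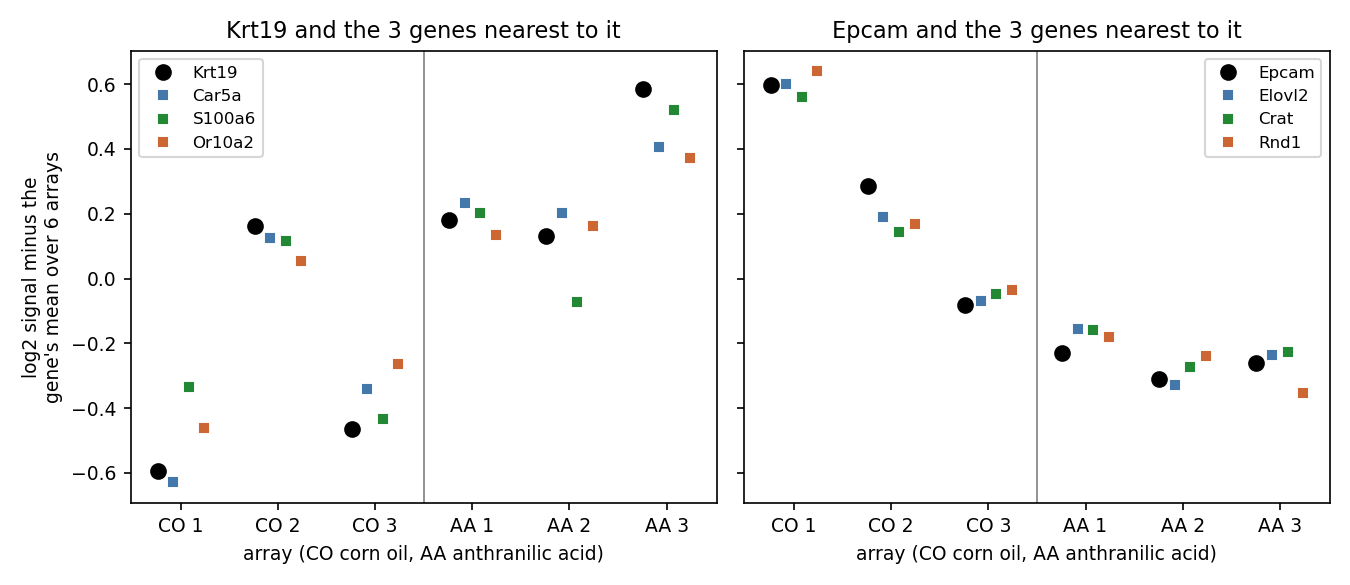
Log2 signal minus the gene's own mean over the 6 arrays, for Krt19 (left) and Epcam (right) with the 3 genes nearest to each. CO is corn oil and AA is anthranilic acid, with replicate numbers. Krt19 and its neighbours are lowest in corn oil replicate 1 or 3 and highest in anthranilic acid replicate 3, whereas Epcam and its neighbours are highest in corn oil replicate 1.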

How the data were processed

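Liver RNA of 6 rats was measured on single-colour Agilent arrays (Cy3) with 61657 non-control probes. Per the file headers, Agilent Feature Extraction 10.7.1.1 gave the deposited spot intensities, with background subtracted and no normalization between arrays. Version 10.7 of the same program stands in the submitters' processing notes. The authors' deposited table of the whole series holds a linear ratio of that signal to 1 value per array, within 0.0355% to 0.126% of its 75th percentile (column medians 0.0887 to 0.0976). That table was used as an alternative. How its divisor was chosen is not stated in the headers or labels.

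The log2 processed signal was scaled by subtracting the 75th percentile of each array. Control spots and 14 flagged spots of 369942 were left out. The test took the 33428 probes that 1 group or both measured well above background on 3 of 3 arrays, with 2 or more unflagged spots per group. No spot was saturated. Accessions matched the RefSeq table of GRCr8 for 27460 probes (44.5%), and 34197 are unnamed here. The headers name rn4, so no probe has coordinates here. Spp1 is also an older symbol of Sgpp1, and current symbols took precedence. The brightest tested probe stood for a gene. The comparison used lmFit and eBayes of limma 3.58.1 under R 4.3.3, with 4 residual degrees of freedom and a prior of 2.30, two-sided p-values and Benjamini-Hochberg adjustment. The procedure was tested on simulated data.

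The genes, lists and tests were chosen with earlier results of these data known, and no list or score was tested. From each list the text names at most the 4 genes with the smallest p, and the 3 nearest profiles of Krt19 and Epcam. Genes named outside that rule were chosen after seeing their values. A listed gene is not reported here. Array correlations were 0.987 to 0.992 inside groups and 0.984 to 0.989 across them, with 75th percentiles of 489 to 523. The corn oil arrays and treated replicates 1 and 2 lay on slide 1, scanned together, and treated replicate 3 on slide 2. On slide 1 corn oil lay in row 1 and treated rats in row 2, which cannot be told apart from treatment there. The number of arrays limits the precision.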

Additional observations from a re-analysis of the deposited data

How the results depend on the processing

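None of the 8 genes passed under any of the 17 alternatives, so the count of 0 did not move. The count of called probes over the whole array was 11. It was 50 after normexp correction, 45 under a trended robust variance, 21 with median scaling, 18 with array weights, 6 with slide as a block, and 2 each with no filter on dim probes, with probes above background on all 6 arrays and with a replicate block. It ranged from 4 to 21 with 1 array left out, and was 11 with quantile normalization and with the authors' value table. Same-numbered rats did not deviate together (r from -0.051 to 0.072 across probes), so the numbers give no pairing. The median of the 8 genes was 0.15 with the replicate block, which by its balanced layout leaves group differences unchanged. That median ranged from 0.0028 to 0.22 with 1 array left out. It was -0.0024 when probes had to be above background on all 6 arrays, which leaves out Cftr, and 0.064 with slide as a block. Slide 2 holds only anthranilic acid replicate 3, so that block gives the same differences as leaving this array out and is no separate check. The sign of Krt8, Krt7, Krt19, Epcam, Spp1, Cldn4 and Cftr held in every alternative that gave a value, and that of Krt18 differed in 5 of 17. Differences of these genes were unchanged under the trended robust variance, the replicate block and no filter on dim probes. They were also unchanged with probes above background on all 6 arrays, where Cftr gave no value. The authors' value table, with nearly the same scaling, gave nearly the same differences. The sign under these alternatives is therefore no separate check. Ranges over the alternatives were 0.34 to 0.83 for Krt19, -0.71 to -0.37 for Epcam, 0.065 to 0.66 for Spp1 and 0.49 to 1.41 for Cftr. The Krt8 to Krt18 ratio and the order of the rats were added after seeing the data, and the ratio moved by -0.35 to -0.19. With 3 rats a group and dim probes for Krt7, Krt19, Spp1 and Cftr, differences of the sizes seen here are not resolved. Removing 1 array leaves 2 rats in a group. The cause of the changes in the probe count was not tested.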
